A study of Mus musculus with 24 samples.

Results

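Molecular chaperones of the mouse ovary, the heat shock proteins, the DnaJ proteins and the subunits of the CCT complex, were compared between the high-fertility line FL1 and the control line DUKsi. The members were all probe sets whose single annotated gene symbol starts with Dnaja, Dnajb, Dnajc, Hspa, Hspb, Hspd, Hspe, Hsph or Hsp90, or is Cct with a number or Tcp1. They were 146 of 22626 probe sets tested and represented 70 of 12393 genes, of which 42 had more than 1 probe set. The prefix Hspb also took in Hspbp1, a nucleotide exchange factor of Hsp70, and Hspb11, a protein of intraflagellar transport, and both are given with the small heat shock proteins for this reason alone.

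FL1 was selected to generation 130 for an index of litter size and litter weight at birth of first litters. DUKsi is an unselected line from the same genetic pool that was inbred by full-sib mating, so that selection and inbreeding differ between the lines together and cannot be told apart here. The replicates were pools of ovarian RNA, 6 for each line, each of which was hybridized to 2 arrays. The RNA came from virgin females in metestrus at an age of 6 to 9 weeks, 30 for each line. The number of animals per pool is 5 by the count of animals and pools and 6 by the sample labels. The labels give no treatment of either line beyond the selection.

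Chaperones bind unfolded or partly folded proteins and release them in cycles that are driven by ATP. Hsp70 proteins (Hspa) are loaded by DnaJ proteins (also called Hsp40), are recharged by exchange factors such as the Hsp110 protein Hsph1, and pass clients on to Hsp90, which in steroid-producing and steroid-responding tissues is known for keeping steroid receptors ready for their hormone. Hspd1 and Hspe1 form the folding chamber of the mitochondrion and CCT that of the cytosol, where actin and tubulin are folded, whereas Hspa5 (BiP), Hsp90b1 (Grp94) and their DnaJ partners work in the endoplasmic reticulum (ER), through which secreted hormones and zona proteins pass.

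In the ovaries of FL1, transcripts of the inducible Hsp70 gene Hspa1a (log2 fold change -0.85, SE 0.18), of the Hsp90 gene Hsp90aa1 (-0.47, SE 0.07), of the Hsp70 exchange factor Hsph1 (-0.43, SE 0.08) and of the Hsp70 partner Dnaja2 (-0.57, SE 0.08) were lower than in DUKsi, with n = 6 pools a line. Transcripts of the mitochondrial co-chaperonin Hspe1 (0.53, SE 0.10) and of the ciliary DnaJ protein Dnajb13 (0.51, SE 0.10) were higher. Each of these passed at a single probe set, and Dnaja2, Hsp90aa1, Hsph1 and Hspe1 had others that did not pass. The brighter probe set of Hspe1 was at -0.04 and the other one of Dnaja2 at 0.06. The brightest probe sets of Hsp90aa1 and Hsph1 were at -0.11 and -0.19. Hsph1, Hspe1 and Dnajb13 did not pass with a measure of RNA quality as a covariate. No probe set of the small heat shock proteins, the DnaJ C proteins or the CCT subunits passed, although with the arrays scaled to the same median Dnajc10 did, and Hspa1a and Hsph1 did not.

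Transcript abundance was read as the MAS5 signal, an intensity in arbitrary units that is comparable between pools for a given probe set and not between probe sets. Rises and falls are given for FL1 relative to DUKsi and needed an adjusted p under 0.01 in limma, and a probe set was called if the line means also differed by at least 1.5-fold. Of the 146 chaperone probe sets 2 rose, 4 fell and 140 passed in neither direction. The share that passed was 4.11%, against 3.38% of all probe sets tested, with 1.83% of all probe sets higher and 1.55% lower in FL1. Only Hspa1a was called, 0.685% of the members against 2.32% of all probe sets. The signals of the lines did not overlap in 11 member probe sets (7.53%), 9 of them lower and 2 higher in FL1, against 4.62% of all probe sets. At an unadjusted p under 0.05 in limma there were 31 member probe sets (21.2%), against 19.8% of all probe sets. The shares of members that passed were thus near the background. Fold changes are log2 values of FL1 minus DUKsi, and their median was -0.09 over the members and -0.07 over all probe sets tested. When each array was scaled to the same median, 3 chaperone probe sets rose and 2 fell, and the median became -0.0028 for the members and 0.02 for all probe sets.

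**Figure D1:**
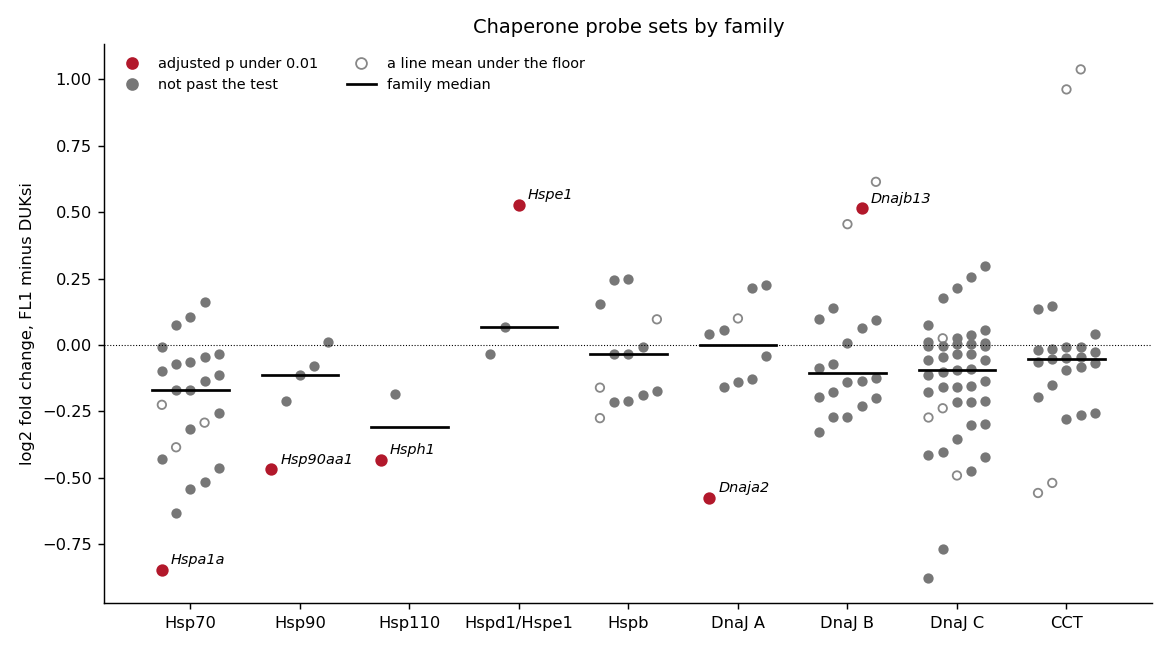
Log2 fold change, FL1 minus DUKsi, of the 146 chaperone probe sets by family; each point is a probe set, open points have a line mean under the floor signal of 48.6, and the black line is the median of the family. The 6 red points passed at an adjusted p under 0.01, 4 of them below and 2 above 0.

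The floor in this plot is the 20th percentile of all signals, and 17 member probe sets had a line mean under it. Their fold changes of up to 1.04 (Cct4, probe set 1415868_at) did not pass. The other 129 probe sets of 66 genes held all 6 that passed. The median fold change of the families ran from -0.31 (Hsp110, 2 probe sets) to 0.07 (Hspd1 and Hspe1, 3 probe sets). Quantile normalization of the arrays moved the median of Hspd1 and Hspe1 to -0.02 and that of the small heat shock proteins from -0.04 to 0.04, and scaling to the same median moved CCT from -0.05 to 0.03, so that no direction is read from these medians.

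As a measure of RNA quality, the 3' to 5' signal ratio of beta-actin was 1.67 ± 0.423 (SD, n = 6) in FL1 and 1.27 ± 0.0522 (n = 6) in DUKsi (exact permutation test, two-sided, p = 0.00216, the smallest p that 6 against 6 pools allow). FL1 pool 3 had the highest actin ratio, 2.454. The same ratio of Gapdh was 1.53 ± 0.42 (SD, n = 6) in FL1 and 1.28 ± 0.146 (n = 6) in DUKsi. Its ranges of 1.13 to 2.31 and 1.08 to 1.51 overlapped (exact permutation test, two-sided, p = 0.203). The actin ratio moved with the line and thus with every difference given here. Its ranges of 1.322 to 2.454 in FL1 and 1.180 to 1.317 in DUKsi did not overlap. It was taken as a covariate, but such a fit cannot tell its part from that of the line. With this covariate 1 chaperone probe set rose and 9 fell. Markers of luteal cells were higher in FL1, with 3 of 7 measured markers past the test (Cyp11a1, Fdx1 and Ptgfr, 0 lower) and a summed signal of 56427 to 62913 in FL1 pools against 31587 to 46110 in DUKsi pools. Of the granulosa markers 1 of 8 was lower (Inhba), with sums of 31833 to 37905 against 37880 to 43506, and of the oocyte markers 1 of 8 was lower (Zp3), with sums of 7428 to 9794 against 9877 to 11727. No marker of these 3 lists was under the floor in both lines. The sums add signals of different probe sets, so that the brightest weigh most in them. Among the granulosa markers 7 log2 fold changes lay below 0 and 1, that of Amh (0.27), above 0. Of the other marker lists, endothelium (Pecam1 of 6) and blood (Alas2 of 2) had 1 marker higher, smooth muscle (Myl9 of 6) had 1 lower, and theca (3), macrophage (6), oviduct (6) and skeletal muscle (5) had none (3, 2, 0 and 2 at an unadjusted p under 0.05). Alas2 had means of 51.5 in FL1 and 14.2 in DUKsi, near and under the floor, and its pools overlapped. The other blood marker, Hba-a1, was at -0.36. In bulk ovary RNA more cells of a type and more transcript per cell cannot be told apart, and the part of cell composition in the differences between the lines was not tested.

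The chaperones were first grouped by regulation. Textbook targets of heat shock factor 1 (HSF1), the factor that turns on chaperone genes in heat or protein stress, are Hspa1a, Hspa1b, Hspa8, Hsp90aa1, Hsph1, Dnajb1, Hspb1, Hspd1 and Hspe1. HSF1 binds repeats of the unit GAA in alternating direction. Upstream sequences of RefSeq genes (GRCm38.p6) were available for 58 of the 70 member genes and for 7 of these 9 genes, not for Hspa8 and Hsp90aa1. The 250 bases before each start were searched for 2 adjoining units, GAANNTTC or TTCNNGAA, both of which read the same on either strand. A match was found in 12.8% of all 32851 windows, in 23.0% of the 74 windows of member genes, and in windows of 6 of the 7 heat shock genes, Dnajb1 being the exception. The upstream sequences of the genes whose values follow are shown with the matches in capitals, in the direction of transcription and ending at the base before the start. The first, of Hspa1a, lies on the minus strand at chr17:34972157-34972306, that of Hspa1b on the minus strand at chr17:34959239-34959388, and that of Hsph1 on the minus strand at chr5:149636337-149636486.
Hspa1a: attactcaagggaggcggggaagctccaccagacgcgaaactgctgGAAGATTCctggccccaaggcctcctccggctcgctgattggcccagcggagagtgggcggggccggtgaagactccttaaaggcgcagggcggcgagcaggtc
Hspa1b: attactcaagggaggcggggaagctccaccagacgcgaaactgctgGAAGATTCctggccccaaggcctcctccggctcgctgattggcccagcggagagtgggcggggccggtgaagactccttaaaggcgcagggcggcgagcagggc
Hsph1: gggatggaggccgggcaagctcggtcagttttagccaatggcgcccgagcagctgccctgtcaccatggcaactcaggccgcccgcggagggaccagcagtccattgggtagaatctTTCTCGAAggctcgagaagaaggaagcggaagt

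The match began 104 bases before the start in Hspa1a and Hspa1b and 33 bases before it in Hsph1. Hspa1a and Hspa1b are neighbouring copies of the stress-inducible Hsp70 gene, and 247 of the 250 bases before their starts were the same. Hspe1 lies on the plus strand head to head with Hspd1, of which the table lists starts on the minus strand 216 bases before and 95 bases after that of Hspe1. Windows of both genes held at least 3 adjoining units, as did 0.466% of all windows, and the stretch they share, with 4 adjoining units, is shown from chr1:55088051-55088079 on the plus strand.
Hspe1: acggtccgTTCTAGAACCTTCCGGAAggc
Such matches describe the letters of these windows and say nothing about binding in the ovary.

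The inducible Hsp70 genes had lower signals in FL1. Hspa1a (probe set 1452388_at) ranged from 141 to 316 with a median of 244 in FL1 pools and from 325 to 473 with a median of 408 in DUKsi pools. All FL1 pools lay below all DUKsi pools, the nearest being FL1 pool 5. The log2 fold change was -0.85 (SE 0.18, 95% interval -1.22 to -0.47, adjusted p = 0.00697, FC -1.75, where a negative FC means lower in FL1), and Hspa1a fell. It still passed without FL1 pool 3, FL1 pool 5 or DUKsi pool 2, but not without any other single pool, at adjusted p values of 0.0102 to 0.0189. With the actin ratio as a covariate it passed with an estimate of -1.10 (adjusted p = 0.00319). The 3 probe sets of Hspa1b did not pass, with log2 fold changes of -0.54 (1427127_x_at, adjusted p = 0.049), -0.52 (1452318_a_at, 0.0787) and -0.63 (1427126_at, 0.0331). The brightest of them ranged from 711 to 1438 with a median of 1082 in FL1 and from 1173 to 1648 with a median of 1572 in DUKsi, so that the lines overlapped. FL1 pool 1 was the lowest of the 12 pools in all 4 probe sets of these genes, and FL1 pool 2 the next in 3 of them. Both had actin ratios of 1.32, the nearest to those of DUKsi, and the part of RNA quality in these signals was not tested. As the copies are nearly identical, the probe sets may each read transcripts of both genes.

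Hsph1, the Hsp110 protein that exchanges nucleotides on Hsp70, was represented by 2 probe sets. At 1423566_a_at FL1 pools ranged from 967 to 1190.2 (median 1014) and DUKsi pools from 1231 to 1603 (median 1382), without overlap. Hsph1 fell at this probe set (log2 fold change -0.43, SE 0.08, adjusted p = 0.00346). It did not pass when FL1 pool 6 or DUKsi pool 1, 5 or 6 was left out, at adjusted p values of 0.0102 to 0.0112, nor with the actin covariate (log2 fold change -0.37, adjusted p = 0.0253). The brighter probe set, 1425993_a_at, ranged from 2998 to 3442 in FL1 and from 3437 to 3713 in DUKsi, with a log2 fold change of -0.19 and an adjusted p of 0.0416. A single FL1 pool thus reached the DUKsi range.

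Hsp90aa1, the inducible cytosolic Hsp90, fell at 1 of 3 probe sets. At 1437497_a_at FL1 pools ranged from 3004 to 3850.4 with a median of 3513, and DUKsi pools from 4375 to 5166 with a median of 4762. The lines did not overlap, and the log2 fold change was -0.47 (SE 0.07, adjusted p = 0.00078). The brightest probe set, 1438902_a_at, had a log2 fold change of -0.11 (95% interval -0.24 to 0.01, adjusted p = 0.308), and 1426645_at one of -0.21 (adjusted p = 0.313). All 3 estimates lay below 0. 1437497_a_at passed in all 16 alternatives of the processing, with adjusted p up to 0.00923, and without any single pool, with adjusted p up to 0.00277.

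Dnajb1, the DnaJ protein that is induced by heat together with Hspa1a, did not pass. At 1416755_at FL1 pools ranged from 983 to 1323 (median 1163) and DUKsi pools from 1329 to 1577 (median 1462), so that all FL1 pools were lower, with a log2 difference of -0.33 (SE 0.08, adjusted p = 0.0157). The dimmer 1416756_at had -0.20 (adjusted p = 0.264), and its ranges overlapped. With the actin covariate the adjusted p of 1416755_at was 0.00383, and without FL1 pool 3 it was 0.00557. Hspa8, the constitutive Hsc70, was at log2 fold changes of -0.07 (1420623_x_at, adjusted p = 0.626) and 0.08 (1455789_x_at, 0.605) in its bright probe sets. Its dimmer 1420622_a_at was at 1219 to 1452 in FL1 and 1496 to 2413 in DUKsi with no overlap, a log2 fold change of -0.43 and an adjusted p of 0.0199. The ending _x_at marks probe sets with probes that can match other transcripts.

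Hspb1 (Hsp27), a small heat shock protein that holds unfolded clients and binds actin filaments, had estimates above 0. At 1422943_a_at FL1 pools ranged from 2206 to 2389 (median 2266) and DUKsi pools from 1644 to 2429.8 (median 1933), a difference of 0.24 in log2 signal (SE 0.08, adjusted p = 0.0958). The FL1 pools lay close together and within the wider range of DUKsi. The other probe set, 1425964_x_at, had 0.25 (adjusted p = 0.271).

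Over the 20 probe sets of these 9 genes 1 rose, 3 fell and 16 did neither. The share that passed was 20%, against 3.38% of all probe sets, and 6 (30%) had no overlap, 5 lower and 1 higher in FL1, against 4.62%. The genes were listed with results of these data known, so that these shares are a description. Their median log2 fold change was -0.19, and it was -0.11 with scaling to the same median and -0.11 over the brightest probe set of each gene. By the brightest probe set of each gene 1 of 9 fell and 0 rose. Quantile normalization left 1 higher and 4 lower, and scaling to the same median 1 higher and 1 lower. The median deviation of the 20 probe sets from the DUKsi mean was -0.30 to -0.08 in the FL1 pools and -0.04 to 0.06 in the DUKsi pools. Of a list of 25 heat shock factors and cytosolic co-chaperones 22 were measured. The only heat shock factor among them was Hsf2, which was under the floor (means of 11.6 in FL1 and 13.2 in DUKsi), and Hsf1 was not among them. Of the 22 genes 1 was higher and 0 lower (5 at an unadjusted p under 0.05). The higher gene was Fkbp5, a co-chaperone of Hsp90 in steroid receptor complexes. It was at 3239.5 to 4871 in FL1 against 2308 to 3282 in DUKsi (0.59 on the log2 scale, SE 0.11, adjusted p = 0.00274). Of 8 immediate early genes, which respond within minutes to handling and stress, 0 passed (0 at an unadjusted p under 0.05), and their median was 0.00357.

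**Figure D2:**
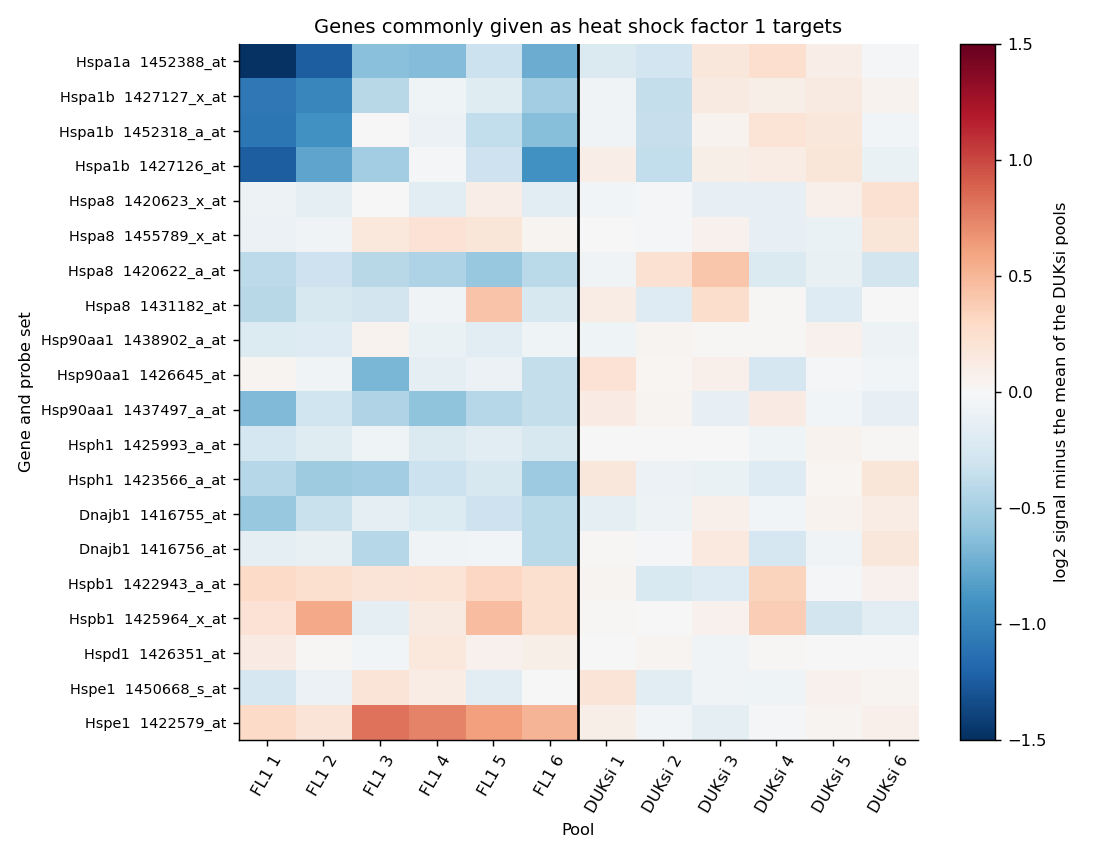
Log2 signal minus the mean of the 6 DUKsi pools for the 20 probe sets of the 9 textbook HSF1 targets (rows) in each of the 12 pools (columns); blue is lower and red higher than the DUKsi mean. Hspa1a was lowest in FL1 pools 1 and 2, with -1.49 in pool 1, whereas Hspe1 (1422579_at) was above the DUKsi mean in all 6 FL1 pools.

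In the mitochondrial chaperonin the estimates differed between the probe sets of Hspe1. Hspe1 encodes the lid (Hsp10) and Hspd1 the barrel (Hsp60). Hspe1 rose at 1422579_at, where FL1 pools ranged from 1510.3 to 2319 (median 1954) and DUKsi pools from 1199 to 1404 (median 1329), with no overlap and a log2 difference of 0.53 (SE 0.10, adjusted p = 0.00309, FC 1.46). The brighter probe set of Hspe1, 1450668_s_at, was at 4182 to 5701 in FL1 and 4438 to 5684 in DUKsi, with -0.04 (95% interval -0.21 to 0.14, adjusted p = 0.857). Hspd1 ranged from 8206 to 9388 in FL1 and from 8099.9 to 8658 in DUKsi, with 0.07 (95% interval -0.04 to 0.18, adjusted p = 0.514). The rise at 1422579_at held without any single pool, with adjusted p up to 0.00942, and was lost with the actin covariate (0.33, adjusted p = 0.036). FL1 pool 3, with the highest actin ratio, also had the highest signal of this probe set. The part of RNA quality in it was not tested. Hspa9 (mortalin), the Hsp70 of the mitochondrion, was at -0.01 (1418504_at, 95% interval -0.17 to 0.15), and its DnaJ partner Dnaja3 at 0.21 (1449935_a_at, adjusted p = 0.277). Of 14 further genes of mitochondrial folding and import 0 passed (2 at an unadjusted p under 0.05), with a median of 0.03.

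Among the DnaJ A proteins, the type with the full set of domains of bacterial DnaJ, Dnaja2 fell at its probe set 1417182_at. FL1 pools ranged from 615 to 757 (median 623) and DUKsi pools from 878 to 1143 (median 939). Of the members this was the probe set with the lowest adjusted p (log2 fold change -0.57, SE 0.08, adjusted p = 0.000238), but its FC of -1.49 was just under the threshold for a call. The other probe set of Dnaja2, 1417183_at, ranged from 518 to 828 in FL1 and from 582 to 733 in DUKsi, with 0.06 (95% interval -0.16 to 0.27, adjusted p = 0.813). 1417182_at passed in all 16 alternatives (adjusted p up to 0.00283) and without any single pool (up to 0.000977). Dnaja1 was at 0.04 (1416288_at, adjusted p = 0.847) and -0.14 (1460179_at, adjusted p = 0.219).

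The 4 genes with a passing and a non-passing probe set were compared within pools, by the log2 difference of the passing and the brightest other probe set. This difference was shifted in FL1 by -0.63 for Dnaja2 (exact permutation test, two-sided, p = 0.00433), by 0.56 for Hspe1 (p = 0.00216), by -0.35 for Hsp90aa1 (p = 0.00433) and by -0.25 for Hsph1 (p = 0.0152). Adjusted over these 4 genes the p values were 0.00577, 0.00577, 0.00577 and 0.0152, but the genes were chosen because one probe set passed, so that the shift is a description of unequal change. Of 37 member genes with at least 2 probe sets above the floor, 13 had log2 fold changes that differed by 0.3 or more. Among the 21 of them with exactly 2 probe sets the brighter had the higher fold change in 66.7%, against 62.2% of 2497 such genes on the array.

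**Figure D3:**
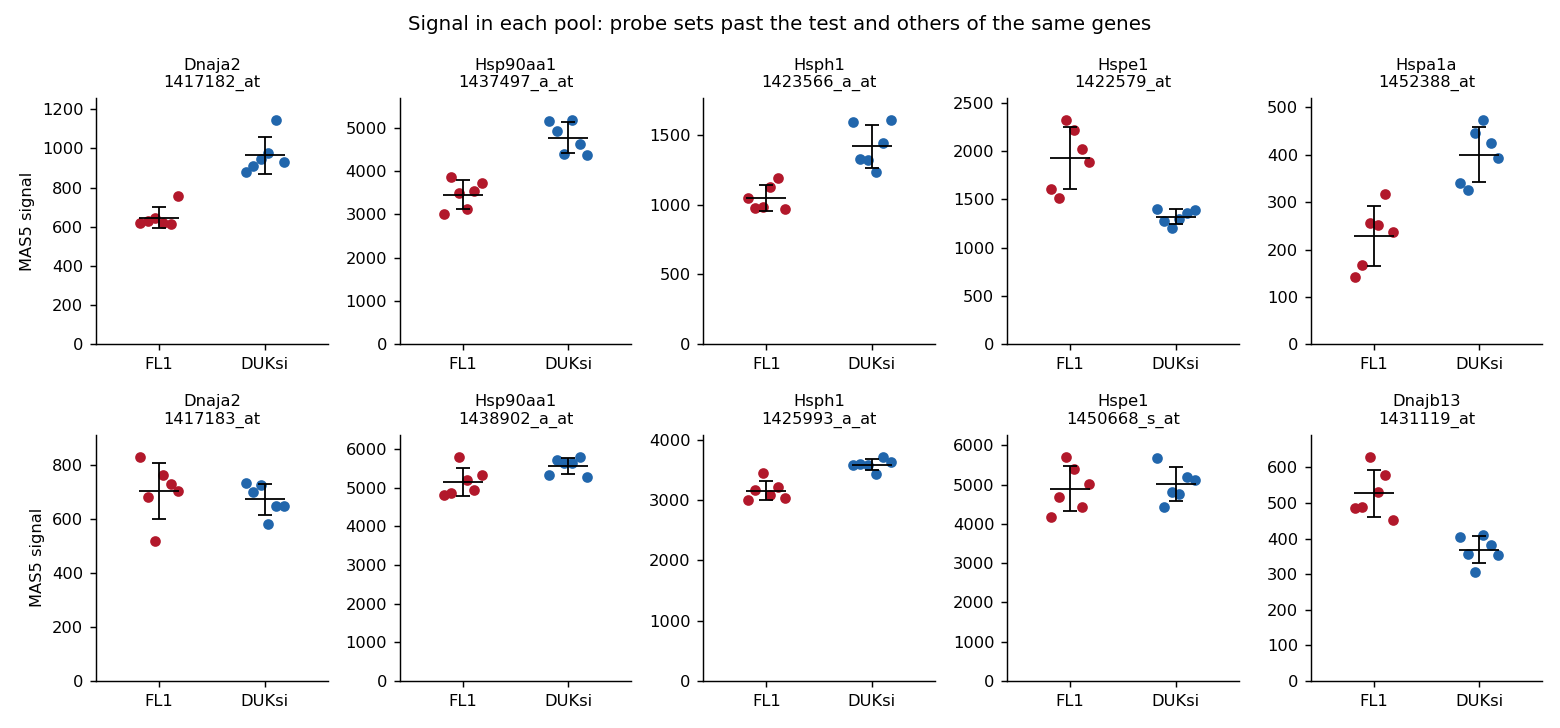
MAS5 signal (arbitrary units, axes from 0) in each of the 6 FL1 (red) and 6 DUKsi (blue) pools, with mean and SD in black. The upper row and Dnajb13 show the 6 probe sets that passed, without overlap of the lines, and the other panels of the lower row show another probe set of the gene above, where the lines overlapped.

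The DnaJ B proteins include both general partners of Hsp70 and proteins of single tissues. Dnajb13, a component of the radial spokes of cilia and sperm tails, rose, with 452 to 629 in FL1 pools (median 510.5) and 307 to 409 in DUKsi pools (median 369). The log2 fold change was 0.51 (SE 0.10, adjusted p = 0.00443, FC 1.43), and the lines did not overlap. It did not pass when FL1 pool 4 or 5 was left out, or DUKsi pool 2, 3 or 6, at adjusted p values of 0.0109 to 0.0134, nor with the actin covariate (log2 fold change 0.42, adjusted p = 0.0325). The oviduct list, which holds ciliary genes, had 0 of 6 markers past the test and a median of -0.30, with 2 markers, Rsph1 and Tekt1, under the floor. Its sums were 426 to 924 in FL1 against 559.5 to 4102 in DUKsi. The highest sum, that of DUKsi pool 4, came mostly from Ovgp1, at 3462 there and at 205 to 330 in the other DUKsi pools. Dnajb6, which keeps aggregation-prone proteins soluble, was at 0.10 in its brightest probe set (1448234_at, 95% interval -0.03 to 0.22). The remaining members of this family, 18 of 20 probe sets besides Dnajb13 and the non-overlapping Dnajb1, overlapped between the lines.

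Of the ER chaperones Hspa5, Hsp90b1, Dnajb9, Dnajb11 and Dnajc3, with 11 probe sets, 0 passed in limma. At an unadjusted p under 0.05 there were 6 (54.5%, against 19.8% of all probe sets), 4 of them from 1 gene. The median was -0.20 over the probe sets, -0.11 with scaling to the same median and 0.01 over the brightest of each gene. The ER stress element, made of CCAAT and CCACG around a spacer of fixed length, was found on either strand in 0.113% of all windows and in those of 3 of these 5 genes, Hspa5, Hsp90b1 and Dnajc3. That of Hspa5, the master Hsp70 of the ER, is shown with its upstream sequence from the plus strand at chr2:34771995-34772073, where the element began 65 bases before the start.
Hspa5: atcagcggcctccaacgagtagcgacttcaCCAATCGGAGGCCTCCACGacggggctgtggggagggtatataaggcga
Hspa5 ranged at 1416064_a_at from 13259 to 14668 in FL1 and from 12345 to 13398 in DUKsi, with a log2 fold change of 0.11 (95% interval -0.0033 to 0.22, adjusted p = 0.269). The dimmer 1427464_s_at was at 2354 to 2941 in FL1 and 2994 to 3963 in DUKsi, without overlap, with -0.31 and an adjusted p of 0.0326. The probe sets of Hspa5 thus lay on opposite sides of 0.

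Dnajc3 (p58IPK), which inhibits the kinase PERK and assists BiP, had 5 probe sets with estimates below 0, from -0.48 to -0.16. At the brightest, 1433887_at, FL1 pools ranged from 868 to 1356 (median 1158) and DUKsi pools from 1347 to 1744 (median 1488), with -0.40 (SE 0.10, adjusted p = 0.0267). It passed without FL1 pool 3 (-0.46, adjusted p = 0.00965) and with the actin covariate (-0.59, adjusted p = 0.00371). A small overlap remained there, whereas 1419162_s_at had none, with 235 to 272 against 273 to 409.7 and -0.42 (adjusted p = 0.03). Dnajb9 (ERdj4) was at -0.20 (adjusted p = 0.209), Dnajb11 (ERdj3) at 0.01 (adjusted p = 0.979) and Hsp90b1 at 0.01 (adjusted p = 0.952). Dnajc10 (ERdj5), a reductase of the ER outside this group, was at 0.21, 0.18 and 0.30 in its 3 probe sets, with adjusted p values of 0.0838, 0.277 and 0.323, and 1426905_a_at passed when the arrays were scaled to the same median (0.30, adjusted p = 0.00873). Of 23 further genes of ER folding and the unfolded protein response 9 had an unadjusted p under 0.05 in limma (39.1%, against 19.8% of all probe sets). Of these Pdia4, Pdia6, Manf, Xbp1, Eif2ak3, Creld2 and Hyou1 were lower, and Pdia3 and Serpinh1 higher. At the adjusted threshold 1 of the 23 fell and 0 rose. This was Hyou1 (Grp170), the exchange factor of BiP, with 616 to 1446 in FL1 against 1484 to 1632 in DUKsi (-0.84 on the log2 scale, SE 0.14, adjusted p = 0.00162), where the pool at 1446 was FL1 pool 3.

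The DnaJ C proteins, which share little but the J domain, were the largest family, with 45 probe sets of 22 genes. None passed, the lowest adjusted p being that of Dnajc3, and the median was -0.09. At an unadjusted p under 0.05 in limma there were 10 of them (22.2%), near the 19.8% of all probe sets. Dnajc8 (1452683_at), a splicing-associated protein, was at 3607 to 4299 in FL1 and 3712 to 4122 in DUKsi (log2 fold change 0.0037, 95% interval -0.12 to 0.13). Dnajc15, a protein of the mitochondrial inner membrane, ranged from 2362 to 2946 in FL1 and from 2233 to 2956 in DUKsi. Both genes overlapped over nearly the whole range. The 13 probe sets under the prefix Hspb held 0 that passed (1 at an unadjusted p under 0.05), with Hspbp1 at -0.19 (adjusted p = 0.335), and 2 crystallin genes of the small heat shock type outside the prefix did not pass either.

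The CCT complex folds actin and tubulin, and its 8 somatic subunits and the testis form Cct6b were measured by 24 probe sets. None passed in limma (3 at an unadjusted p under 0.05), and none separated the lines. The lowest adjusted p was 0.0415, at Cct6a 1455988_a_at, which ranged from 2150.2 to 2639 in FL1 and from 2549 to 3409 in DUKsi (log2 fold change -0.26). The brightest probe set of Cct6a, 1423517_at, was at -0.07 (adjusted p = 0.755). The brightest probe sets of the 8 subunits had log2 fold changes of -0.07 to 0.15, with 95% intervals within -0.27 and 0.29, and 7 of these intervals held 0. That of Cct4 (1415867_at, 3621 to 4553 in FL1 and 3269 to 3898 in DUKsi) did not, with an adjusted p of 0.235. Cct3 (1448178_a_at) was at 6473 to 8215 in FL1 and 6692 to 7659 in DUKsi, with -0.02. Cct2 was at 0.13 (1433535_x_at, adjusted p = 0.294), Cct5 at -0.04, Cct7 at -0.01, Cct8 at -0.05 and Tcp1 at 0.04. Cct6b stayed under the floor in both lines. Of 13 measured genes that deliver clients to CCT or act after it, Pdcl3, a phosducin-like partner, rose, with 767 to 1057 in FL1 against 607 to 680.0 in DUKsi (0.47 on the log2 scale, SE 0.08, adjusted p = 0.00127). Txndc9, another phosducin-like protein that binds CCT, fell, with 367 to 899 against 918 to 1386 (log2 fold change -1.06, SE 0.17, adjusted p = 0.00102). Pdcl3 and Txndc9 were without overlap between the lines. So was Tbcb, with 1514 to 2154 in FL1 against 1338 to 1485 in DUKsi, but it did not pass in limma (adjusted p = 0.0192). These were 3 of the 13 genes (23.1%), against 4.62% of all probe sets. The 11 besides Pdcl3 and Txndc9 did not pass, and 4 of the 13 had an unadjusted p under 0.05 (30.8%, against 19.8% of all probe sets).

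**Figure D4:**
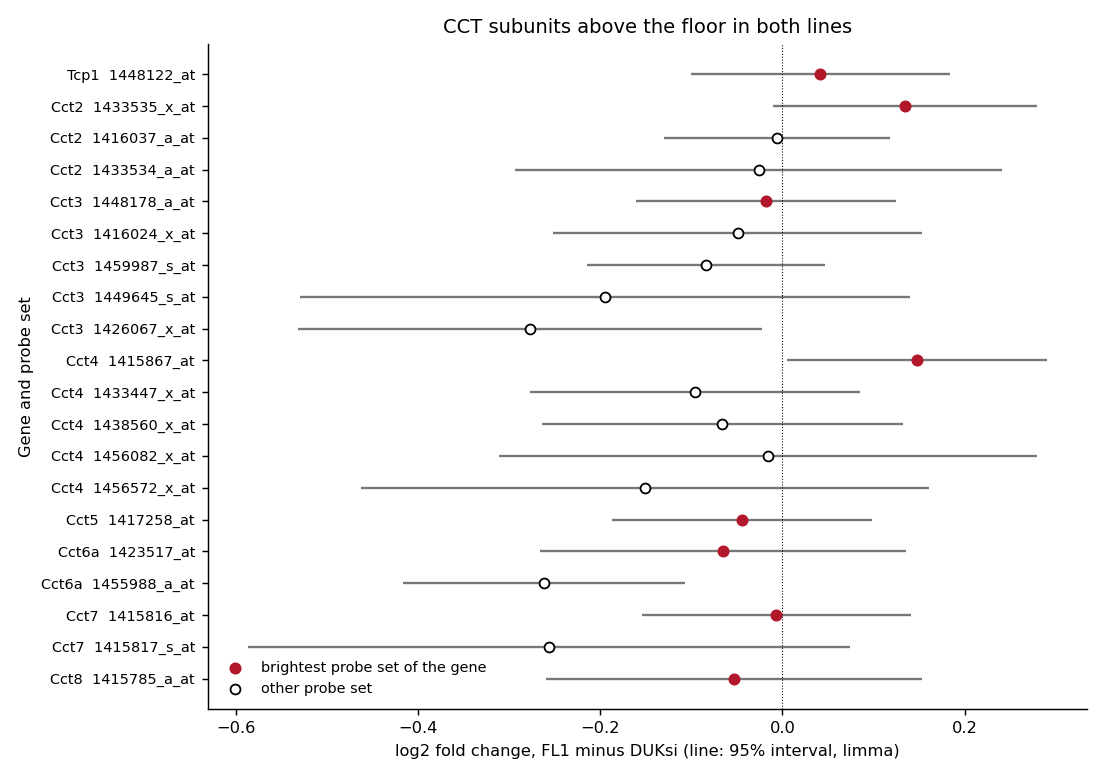
Log2 fold change, FL1 minus DUKsi, of the 20 CCT probe sets above the floor in both lines, with 95% intervals from limma as lines; red points are the brightest probe set of each gene. All points lie between -0.28 and 0.15, and the intervals of 17 probe sets hold 0.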

How the data were processed

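Ovary RNA of 12 pools was hybridized to Affymetrix mouse expression arrays, 2 per pool. The deposited values are linear intensity signals, made by the authors in MAS5 with a common scale for each array. Signals were averaged over both arrays of each pool and taken to log2, and the lines were tested with limma 3.58.1 in R 4.3.3 (empirical Bayes with a mean-variance trend), without the 64 control probe sets, Benjamini-Hochberg adjusted over 22626. Array signals carry no counts, and as both arrays of a pool were averaged, the number of pools limits the precision. The methods' t-test, with equal variance, was an alternative.

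The members, gene lists and tests were chosen with earlier results of these data known. Genes were named if a probe set passed, if they were among the 2 brightest of a family, for their role (HSF1 targets, ER and mitochondrial chaperones, CCT), or, as Dnajc10 and Dnaja3, after their values were seen. Gene names came from the platform annotation, and 691 probe sets with several genes were not assigned. Genes of the marker lists and of the other gene lists were each read by their brightest probe set alone. Upstream sequences came from RefSeq (GRCm38.p6). The procedure was tested on simulated data. Alternatives are given in the closing section. The pool numbers of the labels were checked for pairing and do not pair the lines.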

Additional observations from a re-analysis of the deposited data

Results flagged for a closer look

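In 64 groups of 6 pools, the signals of the named probe sets and the actin ratio by line, a value far from the other 5 was looked for with Dixon's ratio, which chance passes in about 1 of 20 groups, and 4 passed. Dnaja2 (1417182_at) was at 757.2 in FL1 pool 6, where the other FL1 pools lay between 615.2 and 642.4, and at 1143 in DUKsi pool 5, where the others lay between 878.4 and 974.6. Dnaja2 passed without either pool. Cct6a (1423517_at) was at 3990 in DUKsi pool 4, where the others lay between 5173 and 5578. The beta-actin ratio was 2.454 in FL1 pool 3, where the others lay between 1.322 and 1.744.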

How the results depend on the processing

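Dnaja2 (1417182_at) and Hsp90aa1 (1437497_a_at) passed in all 16 alternatives. Of 31 named probe sets, the 6 that passed among them, 19 kept their direction in all alternatives, and 12, with log2 fold changes of -0.07 to 0.07 in the report, changed it in at least 1, at adjusted p values of 0.269 or more. With the first array of each pool these were Hsp90b1 (-0.018), Cct7 (0.049) and Dnaja2 1417183_at (-0.0039), and with the second Hspe1 1450668_s_at (0.019), Dnajb11 (-0.065), Hspa9 (0.0014) and Cct8 (0.039). With quantile normalization they were Hspd1 (-0.021), Dnajb11 (-0.0081) and Hsp90b1 (-0.053). With scaling to the same median they were Hspe1 1450668_s_at (0.053), Hspa8 (0.017), Hspa9 (0.079), Cct3 (0.069), Cct5 (0.044), Cct6a (0.023), Cct7 (0.082) and Cct8 (0.034). With the actin covariate they were Hspa9 (0.040), Hsp90b1 (-0.088), Cct5 (0.059), Cct6a (0.11) and Cct8 (0.15), and without FL1 pool 3 and DUKsi pool 4 Hsp90b1 (-0.036) and Cct8 (0.010). Without a single pool 7 of them changed it, with ranges of -0.081 to 0.0087 (Hspe1 1450668_s_at), -0.039 to 0.079 (Dnajb11), -0.057 to 0.012 (Cct3), -0.047 to 0.025 (Cct7), -0.047 to 0.043 (Hspa9), -0.017 to 0.048 (Hsp90b1) and -0.10 to 0.020 (Cct8). Called probe sets, 1 in the report, were 2 with the first array of each pool, with 24 arrays and the pool as a random block, with scaling to the same median and at an adjusted p under 0.05, 6 without the fold threshold, and 0 with the second array, by both forms of the methods' t-test, by limma without the trend and without FL1 pool 3 and DUKsi pool 4. Higher probe sets, 2 in the report, were 0 with the second array, by both forms of the methods' t-test and by limma without the trend, and 1 with the actin covariate and by the brightest probe set of each gene. Lower probe sets, 4 in the report, were 12 with 24 arrays, 13 at an adjusted p under 0.05, 9 with the actin covariate, and 2 with scaling to the same median, by limma without the trend and by the brightest probe set. The median of the members was -0.0028 with scaling to the same median and -0.035 by the brightest probe set. The causes were not tested, except that fewer probe sets enter by the brightest. Without a single pool, 1 to 3 were higher, 2 to 6 lower and 0 to 2 called. The count of higher probe sets was 1 on omission of pool 4 or 5 of FL1 or pool 2, 3 or 6 of DUKsi, that of lower ones 2 without FL1 pool 6 or DUKsi pool 1, 5 or 6, and that of called ones 0 without DUKsi pool 3, 4 or 5 and 2 without DUKsi pool 2. With the pool number as a replicate block 0 were higher, 3 lower and 1 called, but same-numbered pools correlated at -0.26 to 0.17 in their deviations, so that the numbers do not pair the pools.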
